A study of Mus musculus with 16 samples.

Results

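The response of macrophage chromatin to lipopolysaccharide (LPS) after pretreatment with an LXR agonist was described from 2 lists of ATAC-seq peaks, that of cells given the agonist alone (T0) and that of cells given the agonist and then LPS (T0-LPS). A T0-LPS peak with no T0 peak over any base was called opened, and a T0 peak with no T0-LPS peak was called closed. A peak of each list that overlapped exactly 1 peak of the other was called shared 1-to-1. By these rules 3743 of 31085 T0-LPS peaks were opened (12.0%), 2346 of 29839 T0 peaks were closed (7.86%) and 26589 peaks were shared 1-to-1. The peak names carry running numbers, and a number missing from the other list at a site was called a gap, since a called peak could have been removed there by the authors' enhancer filter. Without the peaks that had a gap in the other list, 2468 were opened and 1436 were closed. Both lists merged to 33226 regions, of 37648 in the 4 lists of the study. Opened peaks that overlapped a peak of vehicle cells (Veh) were called reopened, and opened peaks that did not were called new.

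The cells were macrophages grown from the bone marrow of C57BL/6J mice, used on culture day 8, with 50000 cells in a library and 4 libraries in each of 4 groups. Veh cells received DMSO for 3 h, and T0 cells received 500 nM of T0901317, a synthetic LXR agonist, over the same 3 h. The LPS and T0-LPS groups received the same pretreatments and then LPS at 10 ng/mL for 2 h in the same medium, with the agonist still in it for T0-LPS. T0-LPS against T0 therefore also compared a later with an earlier harvest and a longer with a shorter exposure to the agonist, and LPS cannot be told apart from these. ATAC-seq marks DNA that is accessible to the Tn5 transposase, and the deposited lists held only peaks at macrophage enhancers defined by H3K27ac or H3K4me2. Each list was called on the 4 libraries of a group together, so no difference given here has a replicate check or a p-value, and Wilson 95% intervals cover counting error only.

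The liver X receptor (LXR) is an oxysterol-sensing nuclear receptor that induces cholesterol efflux genes and is known to repress inflammatory genes in macrophages. LPS is a component of bacterial outer membranes that is sensed by CD14 and TLR4, whose adaptors MYD88 and TRIF activate NF-kB, AP-1 and interferon regulatory factors. In macrophages these factors act largely at enhancers already marked by the lineage factors PU.1 and C/EBP, and a smaller number of enhancers gain their accessibility only after stimulation.

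Of 10 macrophage markers, 8 had a peak within 1 kb of a transcription start site (TSS) in the T0 list and 10 in the T0-LPS list, where Csf1r and Mrc1 were the additions. Of the markers of other cells, 0 of 5 T cell genes had such a peak in either list, as had 1 of 4 B cell genes and 1 of 5 neutrophil genes in both, 1 of 4 fibroblast genes in T0 and 0 in T0-LPS, and 2 of 3 endothelial genes in both. The lists differed in length, with 35551 peaks for Veh, 29839 for T0, 33181 for LPS and 31085 for T0-LPS. The score of a peak is the peak caller's, on a scale that grows with the reads behind the list, and read numbers were not used here, so the depth is unknown. Scores were therefore turned into percentiles among the peaks of the same list, from the weakest to the strongest. Where a site is given by 4 percentiles without names, they are in the order Veh, T0, LPS and T0-LPS.

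The sequences of 6 opened peaks that carried a match to the NF-kB consensus are given first, since of the 7 motifs searched it was the one whose share differed most between opened peaks and the rest. Each is the 200 bp at the peak's centre, 5′ to 3′ on the + strand of GRCm38, with the NF-kB match in capitals. The Il12b peak (window chr11:44390151-44390350, intergenic, 9812 bp upstream of the TSS) and the Eva1b peak (window chr4:126137814-126138013, in an intron of Stk40) were the first of the strongest reopened peaks with a match.
Il12b reopened: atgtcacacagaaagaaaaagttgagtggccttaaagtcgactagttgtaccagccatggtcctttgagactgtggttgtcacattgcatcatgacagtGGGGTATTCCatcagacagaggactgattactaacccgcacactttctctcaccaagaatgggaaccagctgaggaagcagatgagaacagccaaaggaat
Eva1b reopened: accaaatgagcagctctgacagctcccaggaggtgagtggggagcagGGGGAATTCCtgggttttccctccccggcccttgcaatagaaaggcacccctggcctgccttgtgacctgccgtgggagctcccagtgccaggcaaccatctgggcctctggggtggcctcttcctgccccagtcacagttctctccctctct

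The other 4 came from new peaks, those of listed genes and the strongest with a certain position. They lay at Arhgap22 (chr14:33288019-33288218, in an intron), at 2 sites in introns of Nfkb1 (chr3:135640294-135640493 and chr3:135670686-135670885) and at Ccl5 (chr11:83534807-83535006, intergenic, 4389 bp upstream). The Arhgap22 window held 2 matches.
Arhgap22 new: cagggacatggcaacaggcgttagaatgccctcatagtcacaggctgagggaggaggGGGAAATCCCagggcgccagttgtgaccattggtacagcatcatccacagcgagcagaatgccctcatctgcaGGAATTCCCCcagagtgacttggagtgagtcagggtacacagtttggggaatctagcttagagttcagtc
Nfkb1 new, 27405 bp downstream of a TSS: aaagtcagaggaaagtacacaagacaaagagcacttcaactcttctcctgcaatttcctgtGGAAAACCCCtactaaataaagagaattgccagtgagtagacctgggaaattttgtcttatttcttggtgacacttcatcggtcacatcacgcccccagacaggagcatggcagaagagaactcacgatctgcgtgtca
Ccl5 new: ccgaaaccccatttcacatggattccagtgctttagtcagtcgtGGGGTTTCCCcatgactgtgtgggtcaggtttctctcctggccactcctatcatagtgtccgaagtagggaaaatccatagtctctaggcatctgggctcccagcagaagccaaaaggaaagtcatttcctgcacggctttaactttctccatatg
Nfkb1 new, 2987 bp upstream of a TSS: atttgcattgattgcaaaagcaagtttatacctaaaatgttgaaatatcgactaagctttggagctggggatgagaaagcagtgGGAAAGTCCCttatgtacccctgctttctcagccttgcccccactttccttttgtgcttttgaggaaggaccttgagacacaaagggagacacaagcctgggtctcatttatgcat

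For contrast, 2 of the strongest closed peaks are shown, neither of which held an NF-kB match in its central window. They lay 10561 bp upstream of Mtmr10 (chr7:64277009-64277208, intergenic) and in an intron of Rasgrp3 (chr17:75438241-75438440), and their capitals mark an AP-1 match.
Mtmr10 closed: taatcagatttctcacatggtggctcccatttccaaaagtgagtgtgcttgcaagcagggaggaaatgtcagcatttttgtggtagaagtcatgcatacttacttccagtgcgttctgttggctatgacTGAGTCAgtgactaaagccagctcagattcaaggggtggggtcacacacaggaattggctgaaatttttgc
Rasgrp3 closed: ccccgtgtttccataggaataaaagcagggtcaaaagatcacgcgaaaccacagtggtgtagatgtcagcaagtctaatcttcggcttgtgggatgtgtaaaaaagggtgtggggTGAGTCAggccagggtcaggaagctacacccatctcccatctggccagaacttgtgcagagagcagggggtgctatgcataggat

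The opened share of 12.0% had a 95% interval of 11.7 to 12.4, and the closed share of 7.86% one of 7.56 to 8.17. Opened peaks were weak. Their median score was 118, at percentile 13.0, against 292 for all T0-LPS peaks, and their median width was 236 bp against 360 bp. Of the opened peaks, 81.2% lay in the lowest 3 deciles of score and 233 reached at least the median. In the lowest decile 48.9% of T0-LPS peaks were opened, in the fifth 5.35% and in the highest 0.387%. Closed peaks had the same dependence, at 34.1% of the lowest decile of T0 peaks and 0.201% of the highest, with a median score of 122 and 57 peaks at the median or above. A peak near the calling threshold can be in one list and out of the other with little change of signal, and how much of the opened and closed sets this holds was not tested. At the edge of the rule, 261 opened peaks lay within 200 bp of a T0 peak, with a median score of 105, and 3 shared pairs overlapped by fewer than 50 bp.

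Most opened peaks overlapped a Veh peak in the full lists, but not with lists of equal length. Such an overlap was less frequent than among the T0-LPS peaks shared with T0, at 99.7%. Of the 3743, 2398 (64.1%, 62.5 to 65.6) were reopened and 1345 (35.9%) were new, and 3041 (81.2%) also had a peak in cells given LPS without the agonist. The share of all T0-LPS peaks with an LPS peak was not computed, so the 81.2% has no whole-list value to be read against. By both criteria, 1992 were reopened with an LPS peak, 406 were reopened without one, 1049 were new with an LPS peak and 296 were found in the T0-LPS list alone. Veh was the longest list, and with every list shortened to the same number of its strongest peaks the reopened share was 34.1% of 3040 opened peaks. The 233 opened peaks of the upper score range held 139 reopened and 94 new ones. The closed set was mostly of vehicle peaks too, at 2203 of 2346 (93.9%), which was also the property of the T0-LPS peaks shared with T0, of which 99.7% overlapped a Veh peak. Of the closed peaks, 1183 had both a Veh and an LPS peak, 1020 had a Veh peak and no LPS peak, 33 had an LPS peak alone and 110 were found with T0 alone.

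**Figure D1:**
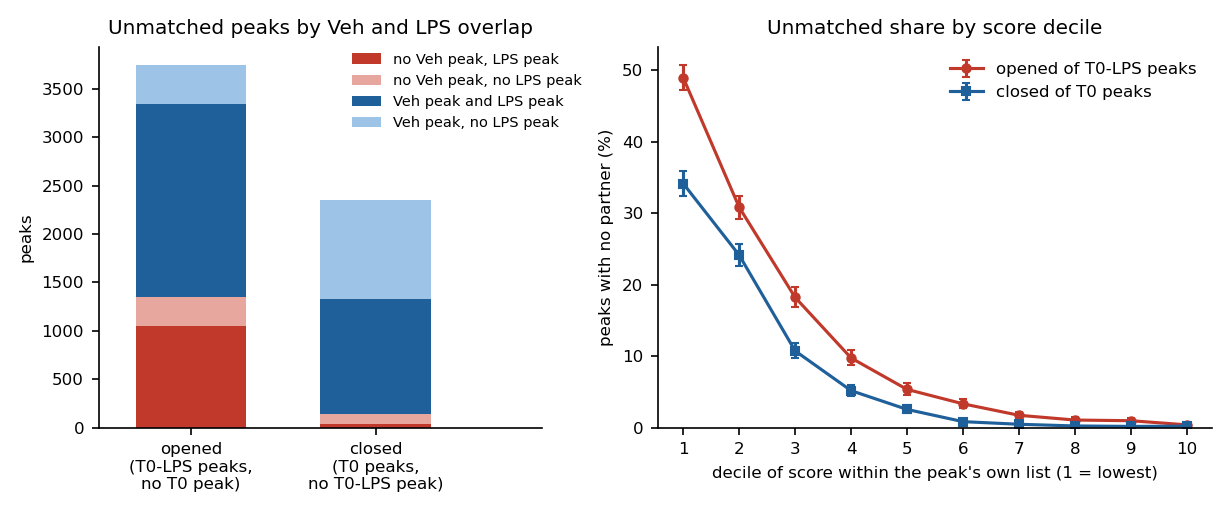
Left, stacked bars count opened and closed peaks by overlap with the Veh and LPS lists. Right, the share of peaks with no partner is plotted against decile of score within the peak's own list, with Wilson 95% intervals, and falls from 48.9% and 34.1% in the lowest decile to under 1% in the highest.

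Seen from the vehicle list, 6474 Veh peaks had no T0 peak, and 2333 of these (36.0%, 34.9 to 37.2) were regained in T0-LPS. The regained share was 61.1% (59.4 to 62.8) of the 3163 such peaks that were also in the LPS list and 12.1% (11 to 13.3) of the 3311 that were not. It was 28.0% for Veh peaks under percentile 10, 40.3% from 10 to 30, 56.1% from 30 to 50 and 41.4% among the 140 above. Reopened peaks that had 1 partner in Veh had a median Veh percentile of 15.0 and a T0-LPS percentile of 13.9. Those with 1 partner in LPS had a median LPS percentile of 19.9 against 15.2 in T0-LPS, and 36.0% of them ranked higher in T0-LPS than in LPS. New peaks with an LPS partner had a median of 21.4 in LPS and 15.2 in T0-LPS, and 30.7% ranked higher in T0-LPS.

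The same sites were compared with the LPS response of vehicle cells, which has no list in common with T0-LPS against T0. Of the 2020 LPS peaks with no Veh peak, 1015 (50.2%) overlapped an opened T0-LPS peak, while 1018 of the 3743 opened peaks (27.2%) overlapped such an LPS peak. Of the 2020, 1078 (53.4%) overlapped any T0-LPS peak and 88 (4.36%) a T0 peak. As 29615 of the 29839 T0 peaks overlapped a Veh peak, LPS peaks chosen for having no Veh peak could rarely overlap a T0 peak. That nearly all those found in T0-LPS were opened was therefore largely fixed by how the sets were chosen. The same shares over all LPS and all T0-LPS peaks were not computed. Of the 4636 Veh peaks with no LPS peak, 977 (21.1%) overlapped a closed peak, and 978 of the 2346 closed peaks (41.7%) overlapped one of them. Of the closed peaks with a Veh peak, 46.3% had no LPS peak, against 4.65% of all T0 peaks with a Veh peak. These closed peaks were weak, with 87.3% in the lowest 3 deciles of T0 score, and T0 peaks of matched strength were not compared.

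Reopened and new peaks differed in where they lay. A midpoint within 1 kb of a protein-coding TSS was found for 28.8% of reopened peaks (27 to 30.7) and 20.1% of new peaks (18.0 to 22.3). The share was 16.1% (14.0 to 18.5) for new peaks that LPS alone also had. For new peaks of T0-LPS alone it was 34.1% (29.0 to 39.7), an interval that overlaps that of reopened peaks. All T0-LPS peaks stood at 37.8%, and closed peaks at 17.9% (16.4 to 19.6) against 37.9% of all T0 peaks. Introns held 54.6% of new and 56.5% of closed peaks, against 44.1% of all T0-LPS peaks. From the median score upwards, 12.0% of opened peaks lay within 1 kb of a TSS, beside 46.0% of all T0-LPS peaks of that strength.

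Motifs were searched on both strands in the central 200 bp of each peak. NF-kB, CTCF and the interferon-stimulated response element (ISRE) were searched as consensus sequences, AP-1 as TGACTCA or TGAGTCA, PU.1 as GAGGAAGT, C/EBP as TTACNNAA or TTGCNNAA, and a nuclear receptor half-site as AGGTCA. NF-kB matches were present in 21.7% of new peaks (19.6 to 24.0), 7.39% of reopened peaks (6.41 to 8.51), 3.79% of T0-LPS peaks shared with T0 (3.57 to 4.02) and 0.938% of closed peaks (0.620 to 1.42). All T0-LPS peaks stood at 4.84%. New peaks with an LPS peak reached 25.3% and those of T0-LPS alone 8.84%, and reopened peaks without an LPS peak stood at 2.96%. The order was kept within broad ranges of score, inside which strength was not matched. Under percentile 30 the shares were 18.0% of new, 5.01% of reopened and 2.01% of shared peaks. From the median score upwards they were 36.2% of 94 new (27.2 to 46.2), 25.9% of 139 reopened (19.3 to 33.8) and 4.73% of shared peaks. There the intervals of new and reopened peaks overlapped. New peaks had a lower median GC content, at 48.0% against 53.0% of all T0-LPS peaks, and the part of base composition in these shares was not tested. Of 365 NF-kB matches in new peaks, 1 overlapped a match of another motif in the search.

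ISRE matches, bound by interferon regulatory factors, were found in 8.87% of new (7.47 to 10.5) and 7.14% of reopened peaks (6.18 to 8.24), against 3.93% of all T0-LPS peaks. The ISRE shares changed with strength. Under percentile 30 the ISRE shares were 9.46% of new, 6.85% of reopened and 3.22% of shared peaks, while from the median score upwards they were 6.38% of new (2.96 to 13.2) and 2.88% of reopened peaks (4 of 139), against 3.30% of shared peaks, and the intervals of both held that value. C/EBP matches were found in 26.2% of new (23.9 to 28.6) and 20.1% of reopened peaks, against 17.1% of all. From the median score upwards they were in 23.4% of new (16.0 to 32.9), 20.9% of reopened (14.9 to 28.4) and 15.4% of shared peaks. The part of base composition in the ISRE and C/EBP shares was not tested either. PU.1 matches changed their order with strength. Over all scores they were in 5.67% of new (4.55 to 7.04), 7.97% of reopened (6.96 to 9.13) and 8.55% of all T0-LPS peaks, and from the median score upwards in 10.6% of new (5.88 to 18.5), 17.3% of reopened (11.9 to 24.4) and 8.22% of shared peaks. Closed peaks held one in 11.3% (10.1 to 12.6), against 9.05% of all T0 peaks. AP-1 matches were in 14.0% of opened peaks (12.9 to 15.1), close to the 14.1% of all T0-LPS peaks. New peaks of T0-LPS alone stood lower, at 8.84% (6.11 to 12.6). Shared peaks that rose by 20 percentile points or more stood higher, at 16.3% (14.8 to 18.0). Closed peaks were at 12.0% (10.8 to 13.4), below the 13.9% of all T0 peaks. The half-site was present in 13.7% of new (12.0 to 15.7) and 10.6% of reopened peaks (9.40 to 11.9), beside 11.5% of all T0-LPS peaks, and in 14.2% of closed peaks (12.8 to 15.7), beside 11.8% of all T0 peaks. CTCF matches were rare throughout, at 0.789% of all T0-LPS peaks, and 2 of 1047 new peaks with an LPS peak held one. Among the Veh peaks missing from T0, those regained in T0-LPS held an NF-kB match in 5.92% (5.03 to 6.96) and those not regained in 1.62% (1.28 to 2.05), with 6.82% and 3.55% for ISRE, 8.28% and 9.88% for PU.1 and 14.4% and 13.0% for AP-1.

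**Figure D2:**
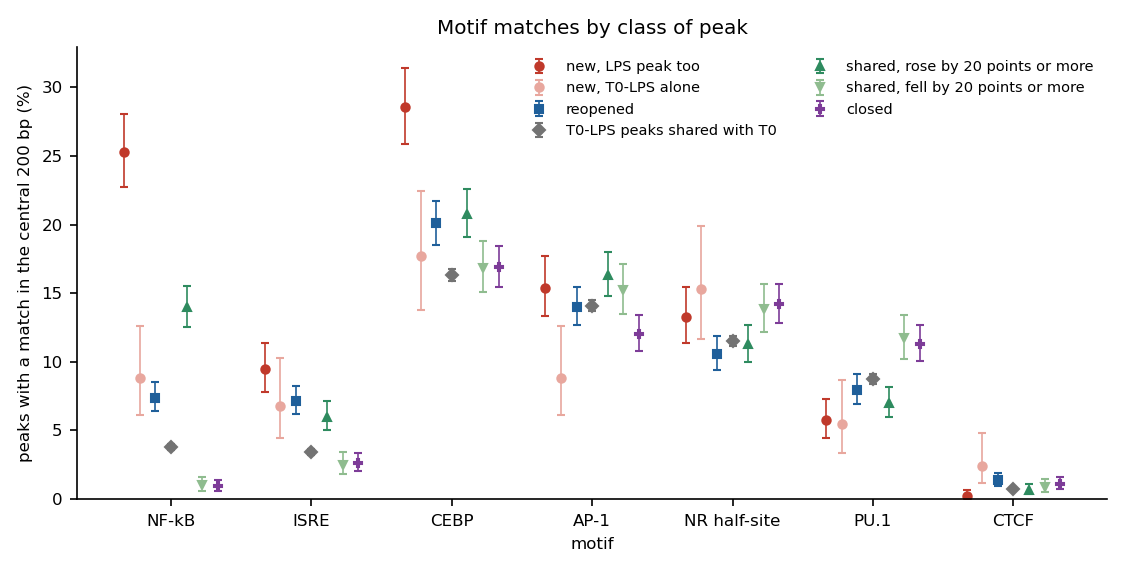
Points give the share of peaks with a motif match in the central 200 bp for 7 classes of peak, with Wilson 95% intervals. The NF-kB share runs from 25.3% of new peaks that LPS alone also had to 0.938% of closed peaks, while the AP-1 shares lie between 8.84% and 16.3%.

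NF-kB matches of the new peaks were densest near the peak centres. Within 50 bp of the centre there were 1.82 matches per kb in new peaks, 0.579 in reopened peaks and 0.227 in peaks shared with T0. At 200 to 300 bp from the centre the densities were 0.224, 0.140 and 0.148 per kb. Of the printed matches, those in the reopened peaks lay 4 bp (Il12b) and -48 bp (Eva1b) from their centres. In the new peaks they lay at -38 bp (first Arhgap22 match), -34 and -11 bp (Nfkb1) and -51 bp (Ccl5).

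**Figure D3:**
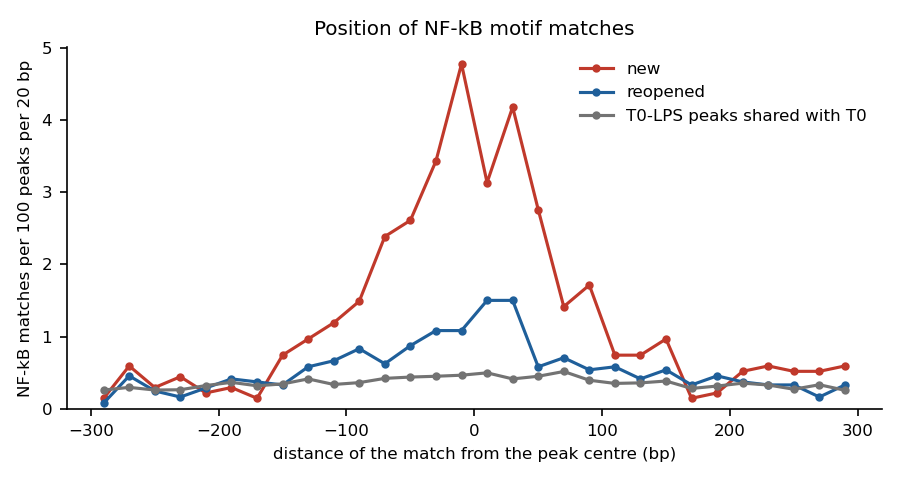
Lines give NF-kB motif matches per 100 peaks in bins of 20 bp by distance from the peak centre, for new, reopened and shared T0-LPS peaks. New peaks have a central maximum, and at 200 to 300 bp from the centre they still have the most matches, at 0.224 per kb against 0.140 and 0.148.

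The 10 strongest new peaks with no gap in the T0 list were nearest to Pik3ca, Apbb1ip, Ell2, Nos2, Mthfsl, Arhgap22, Igf2bp2, Vmp1, Rnf145 and Ciita. The strongest lay in an intron of Pik3ca, the catalytic subunit of a phosphoinositide 3-kinase, at chr3:32403102-32403562. It had no Veh or T0 peak, was at percentile 85.4 in LPS and was at 88.7 in T0-LPS. The peak at Nos2, the inducible nitric oxide synthase, lay 33668 bp upstream at chr11:78886828-78887410 and was at 58.3 in LPS and 73.7 in T0-LPS. A further new peak lay 87 bp upstream of the Nos2 TSS, at 22.2 in LPS and 33.0 in T0-LPS and with an NF-kB match. The Ciita peak, in an intron of the gene of the MHC class II transactivator, was at 44.5 in LPS and 65.8 in T0-LPS. The peak assigned to Mthfsl lay in an intron of Bcl2a1d, a member of a duplicated family of survival genes, and was found in T0-LPS alone at percentile 73.3 with an NF-kB match. Reads of such copies can map to more than 1 place, so its position is uncertain. The other 9 of these 10 had an LPS peak. The 10 were chosen by their T0-LPS score. Over the 1010 new peaks with 1 partner in LPS, 30.7% ranked higher in T0-LPS than in LPS.

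The 10 strongest reopened peaks with no such gap all had an LPS peak. They were chosen by their T0-LPS score, and over the 2279 reopened peaks with 1 partner in Veh 46.8% ranked higher in T0-LPS than in Veh. Il12b, which encodes the p40 chain shared by IL-12 and IL-23, had the first of them (chr11:44389929-44390572). It was at percentile 32.3 in Veh, absent in T0, at 87.4 in LPS and at 91.2 in T0-LPS. A site 316121 bp upstream of Runx1, a transcription factor of blood cells, went from 0.813 in Veh to 80.7 in T0-LPS. Fpr1, a receptor for formylated bacterial peptides, had an intronic peak at 24.9 in Veh, 77.2 in LPS and 76.9 in T0-LPS. The membrane protease gene Mmp14 had one at 22.0, 75.8 and 71.8. The remaining 6 were nearest to Tnfrsf8, St3gal1, Nsmce2, Eva1b, Hmgb2 and Mki67. The last of these, a proliferation marker, had its peak 522 bp inside the gene.

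Opened peaks with a gap in the T0 list reached percentile 99.5, and closed peaks with a gap in the T0-LPS list 99.0. The 8 strongest closed peaks without a gap were weaker than the opened ones, at percentiles 50.2 to 59.0 in T0. They were nearest to Xylt1, Mtmr10, Helz, Man1c1, Rasgrp3, Gmpr, Cotl1 and Selenon, the last inside Man1c1. All 8 had a Veh peak, at percentiles from 36.5 to 64.7. Those at Helz, Gmpr and Cotl1 had no LPS peak, and the other 5 had LPS percentiles from 7.43 to 23.7. Rasgrp3, an exchange factor for Ras expressed in macrophages and B cells, was at 55.1 in Veh, 53.3 in T0 and 12.5 in LPS.

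By nearest TSS, 2835 of 12481 protein-coding genes with a T0-LPS peak had an opened peak (22.7%), and 1876 of 12235 with a T0 peak had a closed peak (15.3%). An opened peak was single at 2261 genes, and 73 genes had 4 or more. The genes with most were Pid1 and Zeb2 with 9 each, Lcp1 and Lpp with 8 each, and Jarid2 and Zc3h12c with 7 each. Zeb2 is a repressor that maintains macrophage identity, Lcp1 encodes the leukocyte actin-bundling protein plastin and Zc3h12c a member of the regnase family of RNA-binding proteins. Ado, Ccl5, Ccnl1, Fbxw11, Id2, Nrp2 and Zmiz1 had 6 each, and the 6 at Ado were all new. Many of these genes had many peaks, with 26 T0-LPS peaks at Pid1 and 31 at Zeb2, but Lcp1 had 8 opened of 12 and Ccl5 had 6 of 6. Anxa2, Mef2a, Tomm20 and Ubash3b had the most closed peaks, with 5 each, followed by several genes with 4.

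Peaks nearest to inflammatory genes were opened more often than the list as a whole. The gene lists were chosen with earlier results of these data known, so this is a description and not a test. Over the union of 7 lists of inflammatory genes, 93 of 414 T0-LPS peaks were opened (22.5%, 18.7 to 26.7), beside 12.0% of all T0-LPS peaks, and 17 of 343 T0 peaks were closed (4.96%, 3.12 to 7.79), beside 7.86%. An opened peak was found at 49 of the 96 listed genes that had a T0-LPS peak, beside 2835 of 12481 genes (22.7%) over the whole list. The listed genes had more T0-LPS peaks each, which raises the chance of an opened one. Of the 93, 54 were new and 39 were reopened, 78 had no gap in the T0 list and 27 held an NF-kB match. The opened shares were 28.2% for chemokines, 25.0% for NF-kB subunits and inhibitors, 25.0% for feedback regulators, 22.6% for inflammatory cytokines, 20.9% for TLR4 receptors and adaptors, 18.8% for adhesion genes and 15.8% for lipid mediators. Outside the union they were 17.8% for arginine, itaconate, redox and glycolysis genes, 15.3% for AP-1 factors, 13.2% for interferon genes, 11.8% for macrophage transcription factors, 6.76% for LXR targets and 3.85% for housekeeping genes. The intervals of the last 6 and of the adhesion and lipid mediator lists held 12.0%. The peaks at inflammatory genes had a median percentile of 44.6 in T0-LPS. From the median score upwards, 5.88% of them were opened, beside 1.50% of all T0-LPS peaks of that strength.

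**Figure D4:**
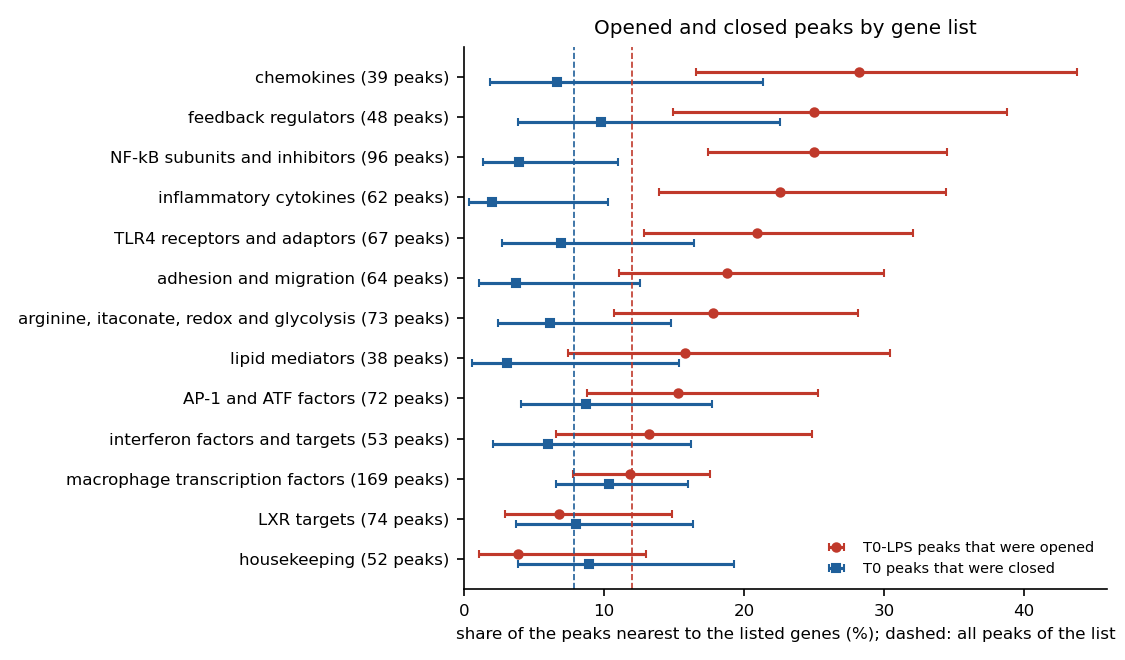
Points give, for each gene list, the share of nearest T0-LPS peaks that were opened and of nearest T0 peaks that were closed, with Wilson 95% intervals, and dashed lines give the shares over all peaks (12.0% and 7.86%). Chemokines have the highest opened share at 28.2% and housekeeping genes the lowest at 3.85%. The lists were chosen with earlier results of these data known.

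Among the ligands, all 6 T0-LPS peaks nearest to Ccl5, a chemokine for T cells and monocytes, were opened, since the T0 list had none there. The 4389 bp upstream site was absent in Veh, at percentile 65.2 in LPS and at 55.6 in T0-LPS, and the peak 76 bp upstream of the TSS was in T0-LPS alone, at 0.434. Ccl9 had 1 reopened peak of 4, at 5.13 in Veh, 44.5 in LPS and 55.4 in T0-LPS. Tnf had 2 new peaks of 4, at 43.7 and 5.11 in LPS and at 44.4 and 15.2 in T0-LPS, both downstream of its start. The shared peak 1419 bp from the Tnf start had no LPS peak and was at 63.8 in Veh, 63.7 in T0 and 0.434 in T0-LPS. Lif had 4 opened peaks, 3 of them with a gap in the T0 list, and Il10 had a new and a reopened one.

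At other cytokine genes most peaks were shared with T0. Il1b had 3 T0-LPS peaks, and all of them were shared with T0. The site 2330 bp upstream of Il1b was at percentile 85.9, 75.3, 80.1 and 81.5, and the site 9326 bp upstream was at 49.2, 36.1, 52.2 and 18.4. Cxcl2 likewise had 3 shared peaks, and that at its TSS was at 69.6, 57.0, 70.1 and 73.3. Il6 had 4 shared peaks and 1 reopened, 199 bp upstream of the TSS, at 6.14 in Veh and 4.93 in T0-LPS. The LPS peak there also covered the shared Il6 peak 75 bp upstream, which was at 37.7 in T0 and 33.5 in T0-LPS, so its percentile of 36.4 belongs to both sites. Csf2, the growth factor GM-CSF, had a reopened peak at 56.0 in T0-LPS, and both of its shared peaks rose by over 20 points. The larger of these rises was from 8.73 in T0 to 71.2 in T0-LPS, with 35.7 in Veh and 72.2 in LPS.

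Among receptors and adaptors, Cd14, the LPS coreceptor, had 2 opened peaks, and Irak2 and Ikbke, kinases of the pathway, had 3 each. The strongest of these was a new peak in Srgap2, 78319 bp from Ikbke, at 67.6 in LPS and 61.3 in T0-LPS. The start sites of Myd88, Tbk1 and Traf6 each had an opened peak within 1 kb. That at Myd88 was reopened, at 30.5 in Veh, 37.6 in LPS and 16.6 in T0-LPS, and that at Tbk1 was new, at 40.6 in LPS and 44.4 in T0-LPS. The Traf6 peak was in T0-LPS alone, at 3.13, and had a gap in the T0 list.

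NF-kB genes had 24 opened peaks of 96, of which 15 were new. Tnip1, an inhibitor that acts with the A20 protein, had 5 new peaks of 10, all with an LPS peak and 2 with a gap in the T0 list. That at its TSS was absent in Veh and T0 and at 35.3 in LPS and 38.5 in T0-LPS, with an NF-kB match. Nfkb1, which encodes p105 and p50, had 5 opened peaks of 13, 2 of them new. These 2 were the Nfkb1 sites printed above, at 79.5 and 71.8 in LPS and at 60.4 and 55.4 in T0-LPS. Traf1 had 5 opened peaks of 7, including 1 at its TSS, and Tnfaip3, which encodes A20, had 4 of 16 and 1 closed. Opened peaks also lay within 1 kb of the starts of Bcl3 and Nfkbid, and Nfkbiz had 2. Nfkbia, which encodes the inhibitor IkBa, had 0 opened peaks of 8. Its shared peaks included a fall from 49.5 to 5.51 at 3841 bp and a rise from 17.1 to 51.0 at 18623 bp, and the Veh and LPS percentiles were 62.2 and 20.2 at the former and 51.6 and 54.8 at the latter.

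**Figure D5:**
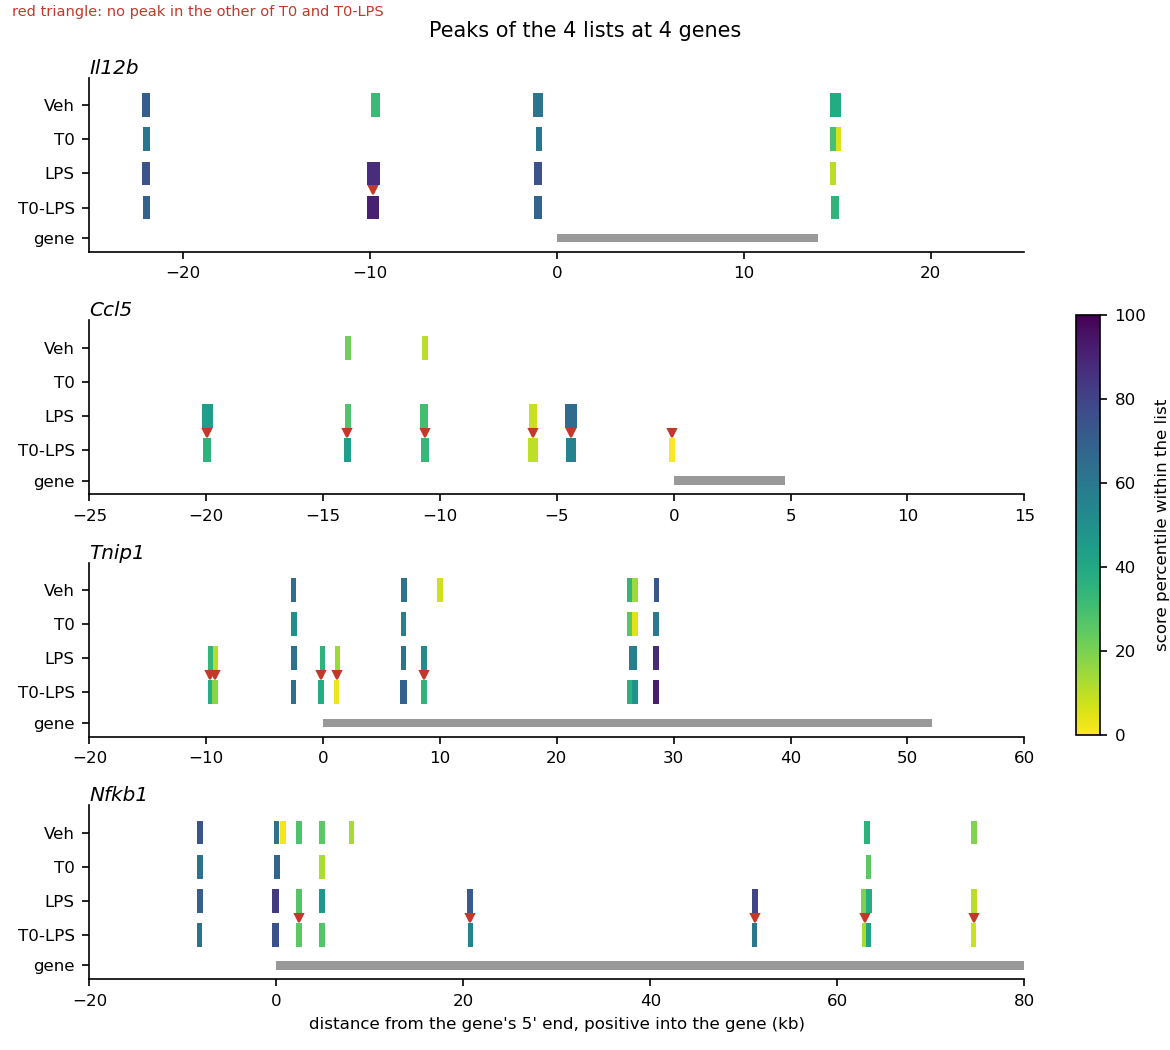
Peaks of the 4 lists are drawn at Il12b, Ccl5, Tnip1 and Nfkb1 by distance from the annotated 5′ end of the gene (kb), coloured by score percentile within the list, with narrow peaks drawn at a minimum width. Red triangles mark the 1, 6, 5 and 5 opened peaks at these genes, in the same order, and the grey bar is the gene.

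Of the feedback regulators, Il10ra and Cd274, which encodes PD-L1, had 3 opened peaks each, those of Cd274 all with a gap in the T0 list, and Dusp2, a phosphatase of MAP kinases, had a reopened one 734 bp upstream with an NF-kB match, at 7.53 in Veh, 38.3 in LPS and 30.4 in T0-LPS. Socs3, an inhibitor of cytokine receptor signalling that was chosen after its values were seen, had 4 shared peaks, all of which rose by over 20 points. That at its TSS was at 39.5, 2.00, 65.0 and 72.1. The adhesion list was led by Icam1 and Itgal, a ligand and receptor pair of leukocyte adhesion. Icam1 had 3 opened peaks of 4, and that at 6110 bp was at 7.53 in Veh, 64.2 in LPS and 57.0 in T0-LPS. The peak at the Icam1 start was at 36.4 in LPS and 34.5 in T0-LPS, and the Veh peak over it, at 64.3, also covered the shared peak 637 bp upstream. Itgal had 3 new peaks of 4, at its start and at 908 bp among them, and the latter was at 68.3 in LPS and 57.2 in T0-LPS. Cd44 had 3 opened of 13. Itgb2, the common beta chain of the leukocyte integrins, had 0 opened of 7 and 1 closed peak, and the peak at its TSS was at 51.1, 43.6, 37.1 and 32.4.

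In the enzyme lists, Ptges, a prostaglandin E synthase, had 3 T0-LPS peaks, all new, at 29.4, 25.9 and 51.5 in LPS and at 27.1, 6.84 and 19.3 in T0-LPS. Pla2g4a had 2 reopened. Ptgs2, which encodes COX-2, had 2 peaks in all, both shared, and that at its TSS was at 81.0, 82.0, 85.1 and 81.1. Acod1, the itaconate synthase gene, had 4 opened peaks of 9, with that 11 bp upstream of its TSS absent in Veh and T0 and at 50.9 in LPS and 49.2 in T0-LPS. The shared peak 4588 bp downstream of the Acod1 TSS was at 71.6, 64.3, 30.6 and 8.77. Ass1 and Hif1a had 2 opened peaks each, and Gch1 and Slc7a11 had 1 each near their starts.

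Of the 18 LXR target genes with a T0-LPS peak, 4 had an opened peak, a share near the 22.7% of all genes. Abca1, the cholesterol efflux transporter, had 0 opened and 2 closed, of 14 T0-LPS and 17 T0 peaks, and both closed peaks had a gap in the T0-LPS list. The closed site in its first kilobases, 4274 bp downstream, was at 53.0 in Veh, 37.7 in T0 and 34.7 in LPS, and the shared peak at its TSS was at 75.6, 74.1, 83.4 and 85.7. Abcg1 had 0 opened of 6. A site 17908 bp inside Abcg1 had no peak in Veh or LPS and was at 1.64 in T0 and 41.8 in T0-LPS. Srebf1, the activator of fatty acid synthesis genes, had 3 shared peaks, and the peak at its TSS was at 20.1, 22.0, 25.9 and 20.2. Lpl had 2 opened peaks of 8.

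At macrophage transcription factor genes the opened share of 11.8% and the closed share of 10.4% (6.57 to 16.0) had intervals that held the 12.0% and 7.86% of all peaks. Over all genes, 659 had both opened and closed peaks, beside 2835 with an opened and 1876 with a closed peak. The overlap that unrelated sets would give was not computed. Runx1 had 2 opened and 4 closed, Mef2a 5 closed, Cebpa 2 opened and 1 closed, and Cebpb 4 opened and 1 closed. Mitf had 4 opened, 3 of them with a gap, and Maf had 3. Jun had 3 opened, all new, and 3 closed, 2 of each with a gap in the other list, and its strongest, 136057 bp upstream, was in T0-LPS alone at 72.1 and was one of these. Batf3 had 1 opened peak at its start and 1 closed. Irf1 had a new peak with an NF-kB match and a reopened one at its start, and Isg15, Ifih1 and Gbp5, interferon-inducible genes, each had 1 within 1 kb of the TSS. The Gbp5 peak was at 15.4 in Veh, 67.1 in LPS and 56.8 in T0-LPS, with a gap in the T0 list. The 2 opened peaks of the housekeeping list were at B2m and Gapdh, at 16.6 and 6.04 in T0-LPS, the former with a gap.

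Percentiles are ranks within each list, so the typical change of the 26589 shared pairs is held near 0, and only the spread and the pairs that moved most can be described. The median change from T0 to T0-LPS was 0.597 points, the quartiles were -6.08 and 7.92, and the range was -70.3 to 84.6. A rise of 20 points or more was found for 2067 pairs (7.77%) and a fall of that size for 1513 (5.69%). With percentiles taken among the shared peaks alone, 1810 rose and 1828 fell and the excess of rises was not kept. At inflammatory genes 45 of 314 pairs rose (14.3%) and 17 fell (5.41%). Median width was 366 bp in T0 and 379 bp in T0-LPS. The median change of width was 1.36%, and 54.1% of pairs were wider. Pairs that rose were wider by a median of 26.1%, and the change was -14.8% for those that fell. A TSS lay within 1 kb of 31.2% of the pairs that rose and 11.6% of those that fell, beside 38.6% of all. NF-kB matches were in 14.0% of those that rose (12.6 to 15.6), 0.991% of those that fell (0.602 to 1.63) and 3.76% of all. PU.1 matches were in 6.97%, 11.7% and 8.89%.

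Of these pairs, 25318 were also 1-to-1 in the Veh and LPS lists. There, of the 1984 that rose after T0, 534 (26.9%) also rose by 20 points or more from Veh to LPS, beside 3.12% of all, and their median change in vehicle cells was 9.80 points. Of the 1419 that fell, 678 (47.8%) also fell in vehicle cells, beside 9.19% of all. In vehicle cells the pairs that rose had a median percentile of 41.2 in Veh and 53.3 in LPS, and the pairs that fell 56.6 and 36.4. The T0 and T0-LPS percentiles chose these pairs, with medians of 22.0 and 54.6 for those that rose and 53.6 and 24.6 for those that fell, beside medians over all pairs of 62.3, 55.1, 59.2 and 56.6.

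The 8 largest rises among pairs at or above percentile 20 in both lists were nearest to Kcnj2, Hook3, Ctsc, Flrt3, H2-Q6, Rgs9, Gm16181 and Jade2. At Kcnj2, a potassium channel gene, the percentiles were 43.1, 24.3, 93.2 and 92.2. H2-Q6, a class Ib gene of the MHC with many near copies, had a peak 131 bp upstream of its TSS that held an NF-kB match, at 50.1, 28.2, 77.8 and 89.2. The H2-Q6 and Gm16181 positions are uncertain, since reads of the MHC copies can be split between them. The 8 largest falls were nearest to Hpgds, Hebp1, Lrig3, Slc24a3, Msl3, Tmem86a, Adgb and Sv2b. Hpgds, the hematopoietic prostaglandin D synthase, had the largest of them, at its TSS, at 84.1, 86.8, 38.7 and 26.5. In all 8 rises the LPS percentile was above that of Veh, and in the 7 falls with an LPS value it was below.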

How the data were processed

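ATAC-seq of 16 libraries was used as 4 deposited peak lists, 1 per group. Per the submitters' notes and the study's methods, the authors trimmed reads with cutadapt, aligned them to mm10 with Bowtie2, removed duplicates with SAMtools, called peaks with MACS2 on the 4 pooled libraries of a group and kept those at macrophage enhancers with bedtools. The deposited score is the authors' peak caller score, whose values are what 10 times -log10 q would give, though no header says so. It grows with depth, so only percentiles within a list were compared, and those shift with the number of weak peaks a list holds. Widths grow with depth too.

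Overlap of 1 bp or more, nearest protein-coding TSS (GENCODE vM21, GRCm38), Wilson 95% intervals and motif matches were computed in Python 3.11.15 with numpy 2.4.6, pandas 2.3.3 and scipy 1.17.1, and were tested on simulated lists. Peak names carry running numbers, and a number missing between neighbours was taken as a peak dropped by the enhancer filter, called a gap. Distances run from the peak midpoint to the nearest TSS of any transcript. With 1 pooled list per group, counts and shares were described without a test. Genes were named by rule: the nearest genes of the 10 strongest new, 10 reopened and 8 closed peaks without such a gap, the 8 genes with most opened and 5 with most closed peaks (ties included or counted), the 8 largest rises and falls, members of the 13 gene lists with 2 opened peaks or 1 that was strong or near the TSS, and 9 genes of interest to the study. The members, gene lists and motifs were chosen with earlier results of these data known. Of the opened peaks chosen for printing by sequence, 1 is not reported here.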

Additional observations from a re-analysis of the deposited data

How the results depend on the processing

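No paired analysis was possible because each group is 1 list of pooled libraries, and leave-one-out values were not run for the same reason. Of 74 alternative values, 28 stayed within the reported share's or median's interval or within 1.5 times the reported count, and 46 moved. A change of sign was looked for only in the median change of width, which kept its sign. Among peaks with at least the median score of their list, 233 were opened and 57 closed, the reopened share was 59.7%, the share with an LPS peak 89.3%, the shares within 1 kb of a TSS 12.0% (opened) and 10.5% (closed), NF-kB matches 36.2% of new and 25.9% of reopened peaks, AP-1 matches 17.6% of opened peaks, and 5.88% of peaks at inflammatory genes were opened. With a reciprocal overlap of 50%, 3559 peaks were closed, the reopened share was 55.5%, the share with an LPS peak 73.0%, the TSS shares 30.7% and 28.9%, NF-kB matches 16.7% of new peaks and AP-1 matches 12.6%. With lists of equal length the reopened share was 34.1%, the share with an LPS peak 71.0%, the opened TSS share 23.4%, NF-kB matches 17.5% of new and 6.27% of reopened peaks and AP-1 matches 15.2%. Without peaks that had a gap in the other list, 2468 were opened and 1436 closed, and the reopened share was 62.3%. With 200 bp of slack the TSS shares were 24.0% and 15.5%. With TSS windows of 500 bp and 5 kb the opened shares were 18.0% and 39.6%, beside 33.8% and 47.8% of all T0-LPS peaks, and the closed shares 12.3% and 33.7%, beside 34.2% and 47.9% of all T0 peaks. With a motif window of 500 bp or the whole peak, NF-kB matches were in 27.9% and 25.1% of new and 12.1% and 9.31% of reopened peaks, beside 9.26% and 8.47% of all T0-LPS peaks, and AP-1 matches in 18.9% and 16.4% of opened peaks. With percentiles among 1-to-1 shared peaks alone, 1810 rose and 1828 fell, so that falls were no longer the fewer. At thresholds of 10 and 30 points, 5460 and 796 shared peaks rose and 4485 and 450 fell. In pairs at or above the median of both lists, 197 rose, 154 fell and the median change of width was 0.862%. With listed genes within 100 kb, 18.0% of peaks were opened.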
